A study of Bos taurus with 6 samples.

Results

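The genes described here are 38 well expressed genes of bull sperm whose loci carry a differentially methylated region (DMR) between monozygotic twin bulls. They were taken from the list of genes with a DMR that the study compiled from bisulfite sequencing of the twins' semen. A gene was kept if it was listed with a symbol, had deposited expression values and reached a mean of at least 18.83 FPKM over 6 sperm libraries. FPKM is fragments per kilobase of transcript and per unit of library depth, a level that is corrected for gene length and library size. The limit is the 60th percentile of the mean FPKM of all 21070 genes, so 40.0% of all genes reached it. Of 309 listed genes, 261 had a symbol, and 217 of these had expression values. After 10 genes were left out by name, 207 remained, and 38 of them (18.4%) were at or above the limit. Of the 10 genes left out, 4 had also reached it, namely CSRP2, DOCK2, PDE7B and HSPA1L. The genes were thus chosen by their measured mean FPKM, so the levels below are a description and were not tested.

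The samples were sperm of the Holstein twins Bull1 and Bull2, with 3 RNA libraries per bull and no treatment. The bulls' age at RNA collection is not given in the labels. Fresh semen had been passed through 40% Percoll to remove somatic cells, and the RNA was amplified by Smart-seq2, which works from minute inputs and copies polyadenylated transcripts. The 3 libraries of a bull came from 1 animal, so a test between the bulls compares the libraries of 2 animals, and its p-value measures only the spread between libraries, which may be technical.

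DNA methylation is the addition of a methyl group to cytosine, in mammals mostly at CpG sites. At promoters it is commonly associated with silent genes, whereas methylation within gene bodies is common in transcribed genes. Mature sperm have packed most of their chromatin with protamines and are thought to make little or no new RNA, so their transcripts are largely remnants of spermatogenesis. In bulk RNA of this kind, fewer cells of a type and less RNA per cell cannot be told apart.

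Whole reads could be recovered from the FPKM of every gene. The libraries held between 486638 and 681933 reads counted on genes, which is shallow, and between 12286 and 17053 genes were above 0. The median FPKM of all genes was between 3.43 in replicate 3 of Bull1 and 11.49 in replicate 2 of Bull2. The 38 genes had between 8 and 1513 reads over the 6 libraries together, with a median of 327.5, against 211 for all genes at or above the limit. Their median recovered length was 2604.5 bases against 1432, the recovered length being the shortest that turned every value into whole reads. Of the sperm markers that could be looked up, SPATA16 was above 0 in all libraries, whereas TEX29 and RNF151 had means of 6.43 and 17.5 FPKM and were at 0 in 4 libraries and 1 library. The summed level of these 3 genes was 96.6 to 132 FPKM in Bull1 and 73.1 to 105 in Bull2. The sum hides differences between them: in replicate 3 of Bull1, SPATA16 was at 16.2 FPKM, TEX29 at 29.6 (7 reads) and RNF151 at 50.8 (27 reads). RNF151 also shares a DMR with RPS2, and the reads of both genes may not be separated.

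Of the 217 listed genes with a symbol and a value, 42 (19.4%) reached the limit, against 40.0% of all genes. The 207 candidates had a median level of 3.52 FPKM against 12.4 for all genes. Within the well expressed range, the 38 genes had a median of 36.4 FPKM, whereas all 8425 genes at or above the limit had a median of 42.7. Only 1 of the 38 was among the top 1% of all genes, 2 were among the top 5%, and 11 were in the top 20%. The limit was reached in both bulls by 29 genes, in Bull1 alone by 4 (ATP6V0C, AKAP1, FBXL2 and IL2RA) and in Bull2 alone by 5 (UBE2E2, ZSWIM5, CDK13, STX3 and bta-mir-7-1). Genes of the last 2 kinds were admitted through the bull in which they were high, so their differences between the bulls are partly set by the choice of genes. For 32 genes the mean of the remaining 5 libraries still reached the limit when the highest library was left out. Just inside the limit were IL2RA at 19.11 and STX3 at 18.89 FPKM, and just outside it were C3orf58 at 18.76 and MRPS27 at 18.58.

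Each gene was given 1 broad role from its symbol. Well expressed were 4 of 9 genes of RNA processing and translation (44.4%), 3 of 7 genes of DNA replication, repair and cell cycle (42.9%) and 5 of 12 genes of protein turnover and folding (41.7%). The shares of these roles were close to the 40.0% of all genes. Such assignments are approximate: CDK13, a cyclin-dependent kinase counted with the cell cycle genes, acts in transcription, and the glycosylation genes STT3B and DPY19L1 were counted under protein turnover and metabolism. Genes of transcription and chromatin were the most numerous on the list, with 40 candidates, but only 2 of these (5.0%) were well expressed, PWWP2A and ZNF428. Metabolic genes contributed 2 of 28 (7.1%), membrane channels and receptors 3 of 19, signalling genes 4 of 24, cytoskeletal and traffic genes 5 of 26 and extracellular matrix genes 3 of 14. By the annotated element under the DMR, 13 of 53 genes (24.5%) with a DMR in a promoter or untranslated region (UTR) were well expressed, as were 14 of 101 (13.9%) with an exonic and 11 of 53 (20.8%) with an intronic DMR. A gene with several elements was assigned to the first of these 3 classes that applied. The groups are small and these shares were not tested.

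**Figure D1:**
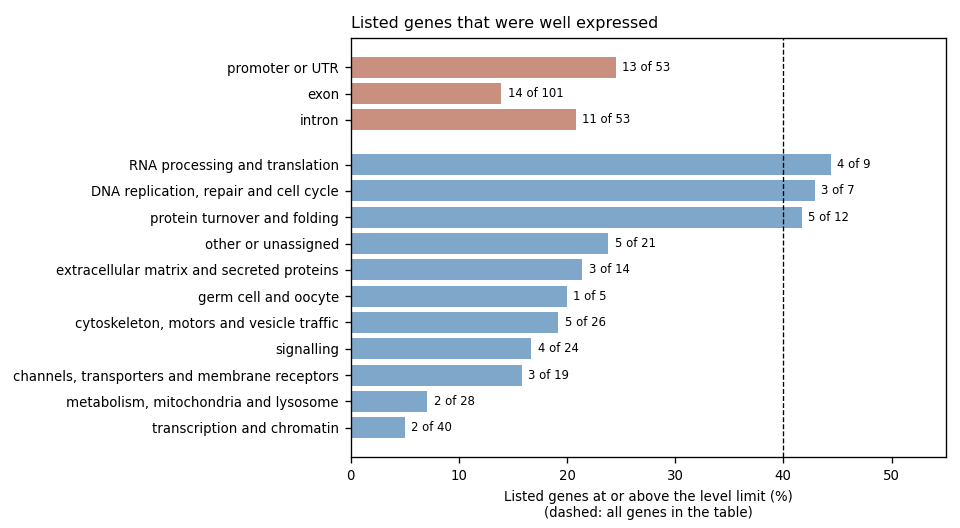
Share of candidate genes (%) at or above the level limit, by annotated element and by role; labels give well expressed genes of all candidates, and the dashed line is the 40.0% of all genes. All 3 element classes lie below the line, and transcription and chromatin genes have the smallest share at 5.0%; the small noncoding RNAs (1 of 2) are not drawn.

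The 13 genes with a promoter or UTR DMR ranged from 23.51 to 255.2 FPKM, with a median of 38.8. The DMR covered the promoter alone in FBN1, FST and TLK2, the promoter and an exon in TTC13, MAGI3 and the miR-7 precursor bta-mir-7-1, the 5′ UTR with an exon in FMNL2, VIM and UBE2H, the 5′ UTR with an exon and an intron in RPS2 and PABPC1, and the 3′ UTR with an exon in UBB and ATP6V0C. RPS2, which encodes a protein of the small ribosomal subunit, was the most abundant of all 38 genes. It was at 363, 228 and 551 FPKM in replicates 1 to 3 of Bull1 and at 228, 51.2 and 112 in those of Bull2. All Bull1 libraries lay above those of Bull2, though replicate 2 of Bull1 and replicate 1 of Bull2 nearly touched, at 227.8 and 227.5. UBB, a precursor of ubiquitin, the tag that marks proteins for degradation, was at 113, 41.4 and 112 FPKM in Bull1 and at 24.6, 15.0 and 48.5 in Bull2. Its libraries overlapped, because replicate 2 of Bull1 lay below replicate 3 of Bull2. PABPC1, which binds the poly(A) tail of mRNA, had 41.9, 46.2 and 40.2 FPKM in Bull1 and 76.7, 38.6 and 27.4 in Bull2, so that the Bull1 libraries lay inside the range of Bull2. RPS2 has processed pseudogene copies and the ubiquitin repeats of UBB recur in related genes, so reads of either gene may be shared with those copies.

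Most of the remaining genes of this class that act in cell structure were even across libraries. MAGI3, a scaffold protein of cell junctions, stayed between 36.9 and 54.3 FPKM in all libraries. Equally even was TTC13, a protein with tetratricopeptide repeats, which had 66.5, 73.7 and 46.3 FPKM in Bull1 and 42.2, 36.3 and 40.6 in Bull2, without overlap. FMNL2, a formin that elongates actin filaments, ranged from 37.5 to 78.4 FPKM. The intermediate filament gene VIM behaved differently, with 77.8 FPKM in replicate 2 of Bull1 and 72.6 in replicate 1 of Bull2, but between 11.04 and 25.6 in the other libraries. FBN1, which encodes the microfibril protein fibrillin, had 39.0, 18.8 and 30.5 FPKM in Bull1 and 43.3, 45.9 and 55.4 in Bull2. Its Bull2 libraries all lay above those of Bull1, and its 1232 reads over all libraries were second in number to those of RYR3 among the 38 genes.

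Among the other genes of this class, the levels of FST, ATP6V0C, UBE2H and bta-mir-7-1 differed more between libraries, and those of TLK2 less. FST, the secreted activin antagonist follistatin, had 86.2 FPKM (69 reads) in replicate 1 of Bull1 but 0 and 2.33 in replicates 2 and 3, whereas Bull2 had 49.6, 57.3 and 34.3. A count of 0 in replicate 2 allows up to 4.18 FPKM. ATP6V0C, the pore subunit of the proton pump that acidifies lysosomes and related vesicles, had 45.5, 10.8 and 74.7 FPKM in Bull1 and 0, 6.03 and 46.9 in Bull2, where the 0 allows up to 4.11. UBE2H, a ubiquitin-conjugating enzyme, reached 68.2 FPKM in replicate 3 of Bull1 and was at 7.03 and 1.57 in the other two, with 23.7, 36.9 and 3.68 in Bull2. TLK2, a kinase of chromatin assembly during replication, ranged from 15.3 to 41.2 FPKM. The level of bta-mir-7-1 came from 8 reads on 98 bases, 7 of them in replicate 3 of Bull2 and 1 in replicate 2 of Bull1, and a single read there was worth 17.91 FPKM. The other 4 libraries were at 0, which allows between 44.9 and 52.6 FPKM, so its place above the limit was not resolved at this depth.

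The 14 genes with an exonic DMR ranged from 18.89 to 72.83 FPKM, with a median of 30.74. In 8 of them the DMR lay in an exon alone and in 6 it reached into an intron. DPY19L1, a member of a family of protein C-mannosyltransferases, was the most abundant, with 47.0, 53.7 and 46.0 FPKM in Bull1 and 85.9, 77.0 and 127 in Bull2. All Bull2 libraries lay above those of Bull1, and the Bull1 libraries were close together. STT3B, the catalytic subunit of an oligosaccharyltransferase that attaches N-glycans, was even across libraries at 31.9 to 53.9 FPKM. ZSWIM5, a zinc finger protein, was lower but also even, with 20.5, 19.4 and 11.8 FPKM in Bull1 and 29.8, 23.0 and 28.2 in Bull2, again without overlap. RYR3, a calcium release channel of intracellular stores and the longest of the 38 genes at 15230 bases, had 12.8 FPKM in replicate 1 of Bull1 and between 29.2 and 33.0 in the other libraries.

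Other exonic genes varied more. AKAP1, which anchors protein kinase A and RNA at the outer mitochondrial membrane, had 34.6, 19.01 and 67.8 FPKM in Bull1 and 6.76, 4.96 and 37.1 in Bull2, and only the last of these lay in the range of Bull1. FBXL2, an F-box subunit that selects substrates for ubiquitination, had 25.8, 33.8 and 28.2 FPKM in Bull1 and 27.1, 12.9 and 8.68 in Bull2, where replicate 1 alone reached the Bull1 range. The chromatin protein PWWP2A, which binds nucleosomes with the variant H2A.Z, was at 81.0 FPKM in replicate 3 of Bull1 and between 19.4 and 44.2 elsewhere. CDK13, a kinase that acts on elongating RNA polymerase II, was at 2.26 FPKM in replicate 3 of Bull1 and 7.24 in replicate 3 of Bull2, and between 21.5 and 37.1 in the other 4 libraries. The metalloprotease ADAMTS19 ranged from 13.3 to 60.8 FPKM and the protocadherin PCDH10, an adhesion protein, from 18.2 to 58.5, in both cases with overlapping bulls. The zinc finger gene ZNF428 was at 0 in replicate 2 of Bull2 and at 80.4 FPKM in replicate 1 of Bull1. RTN1, a reticulon that shapes the endoplasmic reticulum, was at 0 in replicate 3 of Bull1 and at 56.8 FPKM in replicate 3 of Bull2. STX3, a syntaxin of membrane fusion, was at 0 in replicate 2 of Bull2 and at 47.1 FPKM in replicate 1 of the same bull. These counts of 0 allow up to 6.43, 1.5 and 5.55 FPKM. HLA-DMA, which helps load peptides onto MHC class II molecules, had 97.2 FPKM (40 reads) in replicate 2 of Bull1 and 83.3 (35 reads) in replicate 2 of Bull2. It was at 0 in replicate 1 of both bulls, which allows up to 6.53 and 6.49 FPKM, and at 14.2 and 2.85 in the remaining libraries.

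The 11 genes with an intronic DMR ranged from 19.11 to 114.8 FPKM, with a median of 38.56. CWC27, a cyclophilin of the spliceosome, was second in level among the 38 genes. It had 80.0, 220.1 and 72.3 FPKM in Bull1, and its Bull2 libraries, at 105, 101.2 and 110.1, lay inside that range. SPATA16, a Golgi protein of spermatids needed for the acrosome, was the only well expressed gene of 5 germ cell and oocyte candidates, next in level to CWC27 and RPS2, with 79.1, 127 and 16.2 FPKM in Bull1 and 56.1, 94.98 and 100 in Bull2. Replicate 3 of Bull1 thus had the lowest level of SPATA16 with 20 reads, against 65 to 131 in the others. TTC27, another tetratricopeptide repeat protein, spanned 11.2 to 147 FPKM within Bull1 and 45.3 to 89.4 in Bull2. ANLN, the cytokinesis protein anillin, ranged from 25.5 to 73.4 FPKM. ABLIM1, an actin-binding LIM protein, was at 3.48 FPKM in replicate 3 of Bull1 and between 27.8 and 68.3 elsewhere.

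SLC9A8, a sodium/proton exchanger, had 71.5, 14.0 and 68.4 FPKM in Bull1 and 55.1, 10.8 and 11.7 in Bull2, so that each bull held high and low libraries. The signalling genes EFNA5, an ephrin ligand, and ARHGAP24 were close in level at means of 36.5 and 35.75 FPKM, with single libraries between 19.1 and 61.8 and between 17.8 and 49.1. UBE2E2, a ubiquitin-conjugating enzyme, had 0, 12.2 and 13.6 FPKM in Bull1 (0, 6 and 8 reads) and 52.6, 32.0 and 35.8 in Bull2 (29, 16 and 15 reads). All Bull2 libraries lay above those of Bull1, and the 0 allows up to 5.48 FPKM. COL14A1, a fibril-associated collagen and the only one of the 38 genes with 2 DMRs, ranged from 12.2 to 37.6 FPKM. IL2RA, the alpha chain of the interleukin-2 receptor, was at 54.2 FPKM in replicate 3 of Bull1 and between 2.40 and 22.5 in the others.

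**Figure D2:**
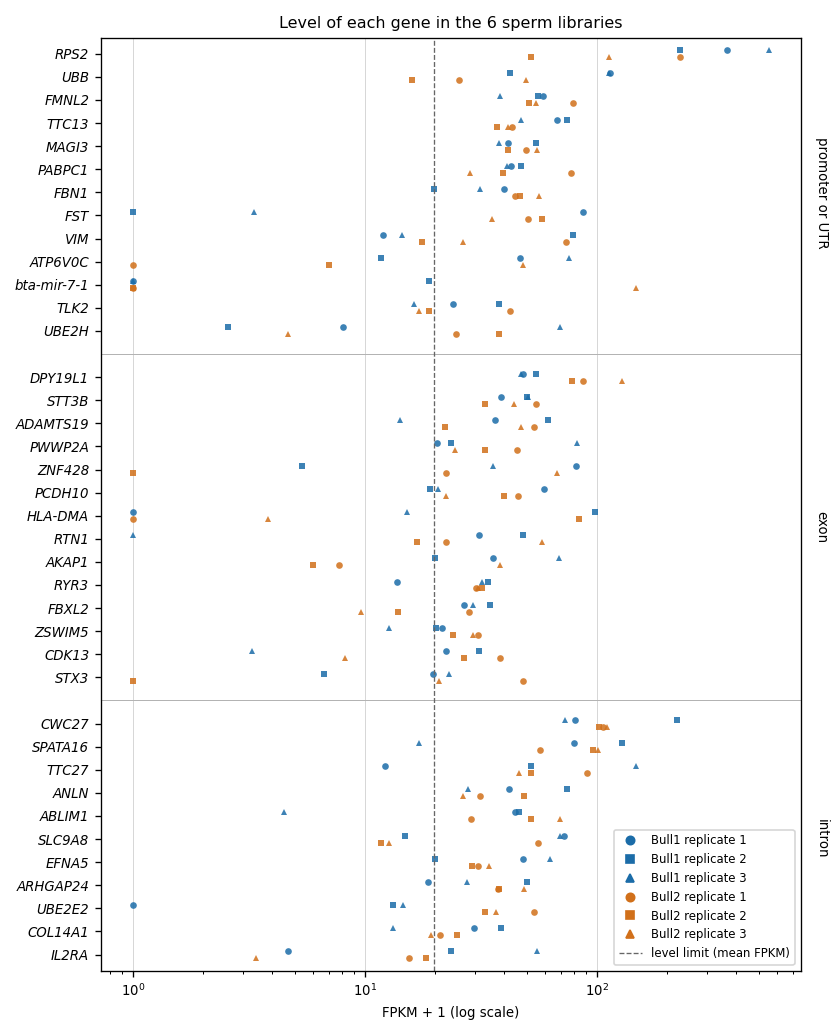
FPKM + 1 (log scale) of each of the 38 genes in the 3 libraries of Bull1 and of Bull2, ordered by element class and mean level; the dashed line is the limit of 18.83 FPKM, which applies to the mean. RPS2 lies highest, points at the left edge are libraries at 0, and the points of MAGI3, TTC13 and STT3B lie close together while those of HLA-DMA and UBE2H are spread widely.

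Of the genes on a list of markers of other cells in semen or testis, 11 of 12 had values and 5 reached the limit: the fibroblast genes FBN1 and COL14A1, the mesenchymal gene VIM, and the immune genes HLA-DMA and IL2RA. The muscle gene DES, the endothelial gene CLDN5, the fibroblast gene COL6A1 and the T cell gene BCL11B had means under 2 FPKM, and SYNM of muscle and the glial gene GFAP had 2.6 and 3.4, the latter from 32 reads in replicate 2 of Bull1 and 1 in another library. The summed level of the list was 88.7 to 274 FPKM in the libraries of Bull1 and 115 to 192 in those of Bull2, and the 2 oocyte genes looked up, NLRP5 and PADI6, were at means of 1.98 and 1.01. The part of other cells in the levels of FBN1, COL14A1, VIM, HLA-DMA and IL2RA was not tested.

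The 38 genes differed widely in how far the libraries of a bull lay apart. The coefficient of variation (CV, the SD as a percentage of the mean), taken within each bull and averaged over both, had a median of 53.2% and ranged from 15.3% in TTC13 to 173% in bta-mir-7-1. All genes at or above the limit had a median CV of 58%, with quartiles of 36.7% and 90.6%. Of the 38 genes, 14 lay below the lower quartile and 7 above the upper. The lowest after TTC13 were MAGI3 (17.7%), DPY19L1 (18.2%), STT3B (20.3%) and ZSWIM5 (20.4%), and the highest after bta-mir-7-1 were HLA-DMA (153%), UBE2H (111%), ATP6V0C (109%) and ZNF428 (106%). The steady genes had between 234 and 1032 reads over the 6 libraries and the variable ones between 8 and 128, so depth moved with spread, and its part was not tested. Counting error alone would give a median CV of 13.5%. The observed CV exceeded the counting CV in all 38 genes and was over 3 times as large in 24. Counting error here treats amplified reads as independent molecules, which they are not, so intervals and floors cover counting error only.

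**Figure D3:**
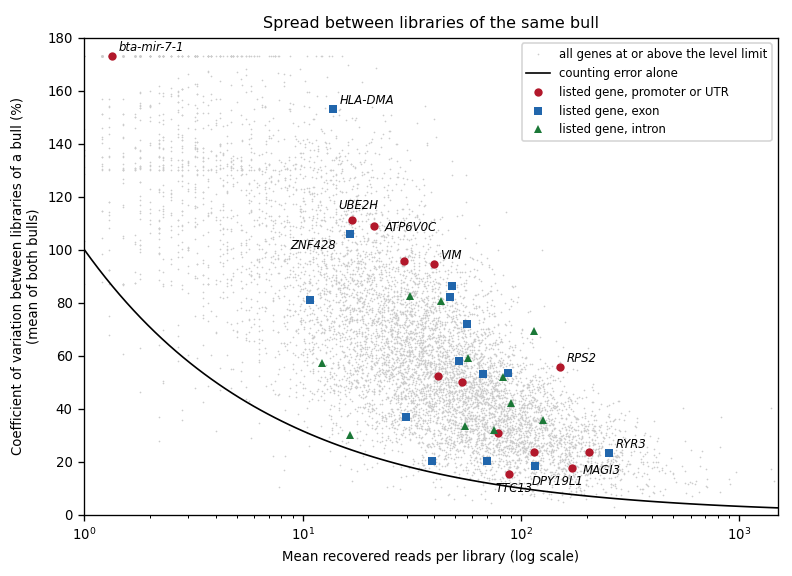
Mean within-bull coefficient of variation (%) against mean recovered reads per library (log scale) for the 38 genes, coloured by element class, over all genes at or above the limit (grey); the line is counting error alone. The 38 genes lie above the line, from TTC13 at 15.3% to bta-mir-7-1 at 173%.

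The 3 element classes had median CVs of 52.4% (promoter or UTR), 55.6% (exon) and 51.9% (intron). A library at 0 occurred in 3, 4 and 1 genes of these classes. In all, 30 of the 38 genes (78.9%) were above 0 in every library, against 68.6% of all genes at or above the limit. Among the libraries, replicate 2 of Bull1 was the highest for 11 of the 38 genes (28.9%) and replicate 2 of Bull2 for 0, whereas they were highest for 17.3% and 11.8% of all genes at or above the limit. Replicate 3 of Bull1 was the lowest for 12 genes (31.6%), close to its share of 26.7% among all genes at or above the limit. Replicate 2 of Bull2 was the lowest for 8 genes (21.1%), against 7.4% of all genes at or above the limit. A gene at 0 in several libraries, such as HLA-DMA or bta-mir-7-1, was counted only for the first of them, with Bull1 before Bull2. The shares of lowest libraries thus depend partly on this rule, and its part was not tested. The median FPKM of the 38 genes lay between 30.7 in replicate 3 of Bull1 and 41.7 in replicate 1 of Bull2.

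To ask whether these genes differed between the twins, each was compared in a limma fit over the 19339 genes with a mean of at least 1 FPKM, on log2(FPKM + 1), with Benjamini-Hochberg adjustment over all of them. No gene passed an adjusted p of 0.05 (0.0% of genes tested; 29 genes passed without replicate 2 of Bull1, 19 without its replicate 1 and 7 without its replicate 3, none of them among the 38), and 1017 (5.26%) had an unadjusted p under 0.05. The adjusted p-values of the 38 genes lay between 0.825 and 0.999. RPS2, UBB and UBE2E2 had an unadjusted p under 0.05, which is 3 of 38 or 7.9%, close to the 8.02% of all genes at or above the limit. RPS2 and UBB were higher in Bull1 (1.71% of all genes tested) and UBE2E2 was lower (3.55%). UBE2E2 was admitted through Bull2 alone, so its place in this count is partly set by the choice of genes. With limma voom on the recovered reads 5 genes were under that p, RPS2, FBN1, FST, DPY19L1 and AKAP1. That is 13.5% of the 37 tested against 6.73% of all genes tested, and the share at or above the limit was not calculated for voom. AKAP1 reached the limit through Bull1 only, so its difference is partly set by the choice of genes. The lowest adjusted p of the 37 with voom was 0.335, while 7 of all genes passed the adjusted threshold. The number of the 38 genes under that p was 0 without replicate 2 of Bull2, 1 without replicate 3 of Bull1 or replicate 1 of Bull2, and 2, 3 and 4 without replicates 1 and 2 of Bull1 and replicate 3 of Bull2, while the share of all genes in these fits lay between 3.89% and 7.03%. With 3 libraries per bull the 95% confidence intervals were wide, and 35 of 38 spanned 0.

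RPS2 averaged 380.4 ± 162 FPKM in Bull1 and 130.0 ± 89.6 in Bull2 (± SD over 3 libraries each), a log2 fold change of Bull1 against Bull2 (log2FC) of 1.70 with an SE of 0.57 and an interval of 0.41 to 2.99 (limma, unadjusted p = 0.0152, adjusted p = 0.825). The log2FC of UBB was 1.58 (SE 0.67), from 88.5 ± 40.8 and 29.4 ± 17.3 FPKM. UBE2E2 had 8.63 ± 7.51 FPKM in Bull1 and 40.1 ± 10.99 in Bull2, and its log2FC was -2.80 (SE 1.17). The limma intervals were 0.08 to 3.09 for UBB and -5.44 to -0.15 for UBE2E2, with unadjusted p-values of 0.0415 and 0.0403 and adjusted p-values of 0.825. UBE2E2 reached the level limit through Bull2 only, so its difference is a description. UBB and UBE2E2, both of the ubiquitin system, had log2FC of opposite sign.

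In 6 of the 38 genes (15.8%) the libraries of the bulls did not overlap, against 9.73% of all genes tested and 11.8% of those at or above the limit. Bull1 was higher in RPS2 and TTC13, that is in 5.3% of the genes where the background was 3.3% (4.74% at or above the limit), and Bull2 was higher in DPY19L1, FBN1, UBE2E2 and ZSWIM5, in 10.5% against 6.43% (7.04% at or above the limit). Each of the 6 had an exact permutation p of 0.1 (two-sided), the smallest that 3 libraries against 3 can give. UBE2E2 and ZSWIM5 were among the genes that reached the limit through Bull2 only. DPY19L1 had the smallest SE of the 38 genes, and its log2FC was -0.94 (SE 0.46, interval -1.98 to 0.10; limma adjusted p = 0.825). The log2FC was 0.61 for TTC13 (interval -0.53 to 1.75), -0.74 for FBN1 (-2.05 to 0.57) and -0.65 for ZSWIM5 (-2.22 to 0.92).

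A |log2FC| over 2, the size limit the study used, was found in FST, ATP6V0C and UBE2E2, 7.9% of the 38 genes against 17.3% of all genes tested. All genes tested include those below the level limit. The share among genes at or above it was not calculated, so the 38 genes are not compared here with genes of like level. With a pseudocount of 0.1 it was found in 5 of the 38, these 3 with RTN1 and ZNF428, against 39.4% of all genes tested. Leaving out single libraries gave 2 of the 38 without replicate 3 of Bull1, 4 without replicate 1 of either bull, 5 and 6 without replicates 2 and 3 of Bull2 and 8 without replicate 2 of Bull1, against 19.5% to 24.2% of all genes tested. For each of FST, ATP6V0C and UBE2E2, 1 library at 0 entered the fit over all 6 libraries. UBE2E2 had reached the level limit through Bull2 only. FST had a log2FC of -2.83 (SE 1.49, interval -6.20 to 0.54) although its highest library belonged to Bull1, and the value was between -4.69 and -1.47 when single libraries were left out. ATP6V0C, which reached the level limit through Bull1 only, had 2.31 (SE 1.44, interval -0.93 to 5.56), with a range of 0.92 to 3.71. For both genes the sign held in each of these fits, but their intervals included 0.

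By the sign of the log2FC, the 38 genes were divided almost evenly between the bulls, with 18 higher and 20 lower in Bull1. That is 47.4% higher in Bull1, against 40.6% of all genes tested and 42.0% of those at or above the limit. Their log2FC lay between -2.83 and 2.31 with a median of -0.08, while the median of all genes tested was -0.29 and that of genes at or above the limit -0.18. Quantile normalization brought the median of all genes tested to -0.03 and that of the 38 genes to -0.04, so the 2 medians were then close. By element, 5 of 13 promoter or UTR genes, 7 of 14 exonic and 6 of 11 intronic genes were higher in Bull1, with median log2FC of -0.13, -0.11 and 0.04. Of 5 cytoskeletal and traffic genes, only STX3 had a positive log2FC, at 0.53. Its mean FPKM was nevertheless lower in Bull1 (15.46) than in Bull2 (22.32), where replicate 2 was at 0. ABLIM1, VIM, FMNL2 and MAGI3 were at -1.16, -0.44, -0.27 and -0.13, and all 5 intervals included 0. The 3 extracellular matrix genes FBN1, ADAMTS19 and COL14A1 were at -0.74, -0.27 and 0.19, also with intervals that included 0. The signs of STX3, VIM, ADAMTS19 and COL14A1 changed when single libraries were left out. That of ABLIM1 held, but its log2FC was -0.05 without replicate 3 of Bull1. Of 4 genes of RNA processing and translation, RPS2, AKAP1 and CWC27 were higher in Bull1, at 1.70, 1.60 and 0.04, and PABPC1 was at -0.02; the sign of CWC27 changed under quantile normalization and that of PABPC1 under median-of-ratios scaling. The 2 well expressed transcription and chromatin genes had 0.04 (PWWP2A) and 1.12 (ZNF428), and the germ cell gene SPATA16 had -0.55. The intervals of PWWP2A, ZNF428 and SPATA16 included 0, and their signs also changed when single libraries were left out.

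**Figure D4:**
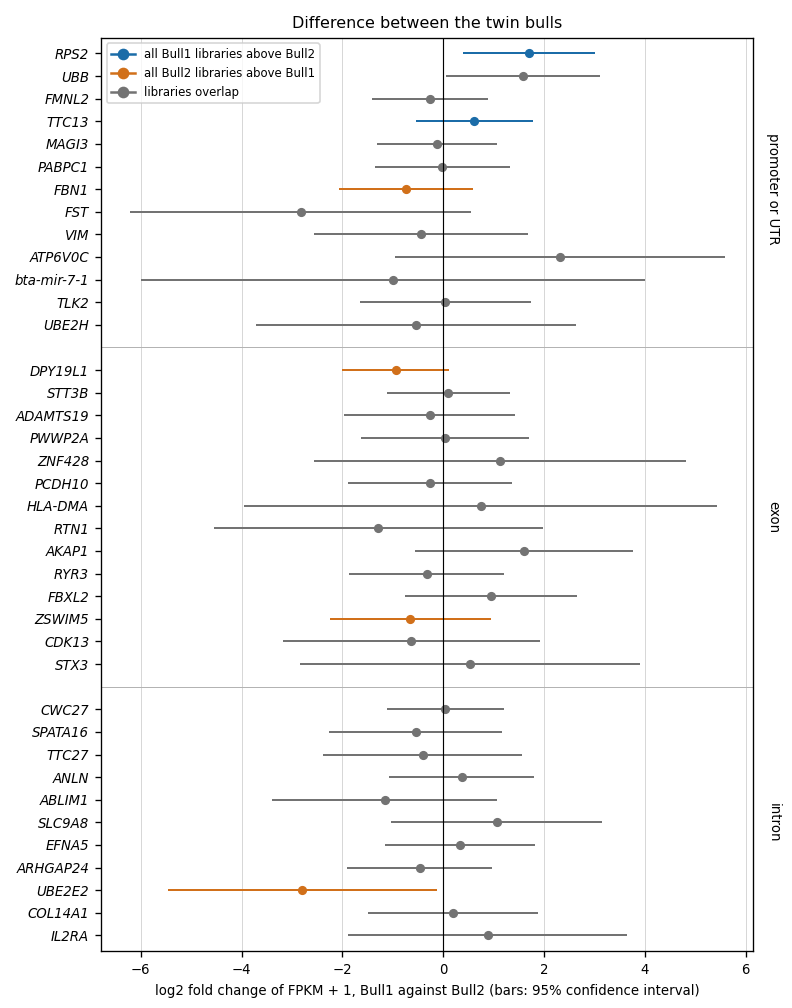
Log2 fold change of FPKM + 1, Bull1 against Bull2, with 95% confidence intervals from limma for the 38 genes, by element class; colours mark genes whose libraries do not overlap. The intervals of RPS2, UBB and UBE2E2 exclude 0, the other 35 include it, and 0 genes passed the adjusted threshold.

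No DMR was shared by any of the 38 genes with another of them. In 4 of them it also lay in another listed gene, namely small nucleolar RNAs and RNF151 for RPS2, ARV1 for TTC13, 2 microRNAs for ANLN and AMDHD2 for ATP6V0C. How the counting treated strand is not stated in the sources used here, so reads of these overlapping genes and their hosts may not be separated.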

How the data were processed

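Sperm RNA libraries of Bull1 and Bull2 (3 each) took their bull and replicate number from their titles, and 0 columns of values were left unassigned. Per the submitters' processing notes, reads were checked with FastQC 0.11.2, trimmed with Trimmomatic 0.35, mapped to UMD3.1 with TopHat2 2.0.12 and counted per gene with HTSeq 0.6.0. The authors calculated FPKM for each library, and these deposited FPKM values were used here. The merged replicates behind the authors' own tests were not used. The bisulfite data were not analysed here: only gene identifiers, symbols and the element under each DMR were taken from the study's list.

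The 38 genes, their roles and the marker lists were chosen with earlier results of these data known. Roles were assigned from symbols. Whole reads were recovered from FPKM by finding library totals and gene lengths that make all values whole numbers (tolerance 0.001 reads). This held for 100% of genes and, with shifted totals, for 0% of 300 control genes. The floor for a count of 0 was set at 3 reads. Differences were tested with limma 3.58.1 in R 4.3.3 (variance trend, pseudocount 1, mean FPKM of at least 1, Benjamini-Hochberg adjustment), and single genes with two-sided exact permutation tests in scipy 1.17.1. Other steps used Python 3.11.15, numpy 2.4.6, pandas 2.3.3 and matplotlib 3.10.9. The limma step and the recovery were tested on simulated data. A rule on level, spread, overlap, role and markers named 35 of the 38 genes. The other 3, RTN1, AKAP1 and FBXL2, were added after their values were seen so that every gene is described. Of the symbols, 36 matched RefSeq genes of assembly ARS-UCD2.0, all protein coding. No coordinates or sequences are given, since a genome and annotation of the build used were not analysed here.

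The analysis was repeated with a pseudocount of 0.1, without the filter, with a stricter one (mean FPKM of 5), quantile normalization, rescaling to a sum of 1000000, median-of-ratios scaling, no variance trend, the replicate number as a block, limma voom on genes with a mean of at least 5 recovered reads per library, and leaving out each library in turn.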

Additional observations from a re-analysis of the deposited data

How the results depend on the processing

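Of the 38 genes, none that was tested passed an adjusted p of 0.05 in limma under the 9 other settings or the 6 fits that each left out 1 library. All 38 were tested in each of these, except that bta-mir-7-1 had too few reads for voom. Their adjusted p-values in limma lay between 0.335 and 1.0. Over all genes, 0 passed, against 2 with quantile normalization, 1 with the replicate number as a block and 7 with voom on recovered reads; leaving out 1 library gave 0 to 29. Of the 38 genes, 3 had an unadjusted p under 0.05, against 1 without a variance trend and 5 with voom, and 0 to 4 when 1 library was left out. Deviations of libraries with the same replicate number were nearly uncorrelated between the bulls (r of -0.008, 0.034 and 0.023). The labels do not say whether such libraries were paired, and these values cannot settle it. With the replicate block 2 of the 38 had an unadjusted p under 0.05 in limma. When 1 library was left out, 15 to 21 genes were higher in Bull1, the median log2FC lay between -0.28 and 0.06, the median CV between 42.4% and 56.4%, and 39 to 43 genes reached the limit. With the limit set on the median over libraries 35 candidates reached it, 34 of the 38 genes and 1 other, and 29 reached it in each bull. A |log2FC| over 2 was found in 3 of the 38 genes, in 5 with a pseudocount of 0.1 (39.4% of all genes tested) and in 2 to 8 when 1 library was left out (19.5% to 24.2%). The libraries did not overlap in 5 genes with quantile normalization or rescaling and in 7 with median-of-ratios scaling.

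The log2FC changed sign for CWC27 with quantile normalization (-0.01) and voom (-0.01), PABPC1 with median-of-ratios scaling (0.06) and TLK2 with voom (-0.06). Leaving out 1 library changed the sign of 21 genes, and the cause was not tested. Their log2FC ranges were -0.47 to 0.33 for CWC27, -1.15 to 0.30 for SPATA16, -1.26 to 0.54 for TTC27, -0.34 to 0.38 for PABPC1, -0.09 to 0.28 for STT3B, -0.64 to 2.40 for ZNF428, -1.85 to 0.53 for UBE2H, -0.82 to 2.54 for HLA-DMA, -2.40 to 1.41 for bta-mir-7-1, -0.01 to 0.70 for ANLN, -0.28 to 0.45 for TLK2, -1.28 to 0.38 for CDK13, -0.79 to 0.03 for PCDH10, -0.56 to 0.09 for RYR3, -0.76 to 0.30 for ADAMTS19, -0.13 to 0.64 for COL14A1, -0.01 to 0.81 for EFNA5, -0.60 to 0.40 for PWWP2A, -1.13 to 1.66 for STX3, -1.30 to 0.14 for VIM and -2.32 to 0.47 for RTN1. The other 17 genes, among them RPS2 (1.16 to 2.22), UBB (1.2 to 2.05), UBE2E2 (-3.47 to -1.53) and DPY19L1 (-1.09 to -0.73), kept their sign in every fit. At these depths a gene with a count of 0 was limited to between 1.5 and 52.6 FPKM, the latter for bta-mir-7-1.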
